A study of Homo sapiens with 6 samples.

Results

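The 10 genes described here are subunits, inhibitors and targets of the transcription factor NF-kB: NFKB1, NFKB2, RELA and RELB, NFKBIA, NFKBIE and TNFAIP3, and BIRC3, CXCL8 and CXCL1. They were chosen by name, each by its Ensembl identifier, from the 27134 genes of the deposited table. The rule itself uses no measured value, but the choice was made with earlier results of these data known. RNA was sequenced from 3 libraries of KM12 cells that overexpress CDO1 and 3 libraries of control KM12 cells, called mock. KM12 cells, an established line from a human colorectal cancer, were the host in both groups, taken at passages 10 to 15, and CDO1 encodes cysteine dioxygenase type 1, an enzyme that oxidises cysteine. The labels do not name the vector or promoter that drives CDO1, nor say whether a group is 1 clone, or whether its libraries are separate cultures. P-values here therefore reflect library-to-library spread, and that spread may be technical.

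NF-kB is a family of dimers held in the cytoplasm by inhibitor proteins of the IkB type until a kinase complex marks these inhibitors for destruction. The dimers then enter the nucleus and bind kappaB sites near genes of inflammation, survival and leukocyte recruitment, and among those genes are their own inhibitors, which closes a feedback loop. In intestinal epithelium the pathway is known for its part in the response to microbes and cytokines and for its frequent activity in colorectal tumours.

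The sequences below show which members carry the class of site that NF-kB dimers bind. RefSeq (GRCh38.p14) gave windows from 250 bases before to 50 bases after a gene's start for 8 of the 10 members, RELB and NFKBIE having none, and 3 of the 8 had several windows, for 12 in all. The 9-base string GGAATTTCC, searched on both strands, was in 4 of the 12 windows, 1 each of NFKB1, NFKBIA, CXCL8 and CXCL1. It was in 0.461% of the 35116 RefSeq windows of the same length. The degenerate kappaB decamer, searched on both strands and partly overlapping that string, was in 7 of the 12 windows, belonging to NFKB1, NFKB2, NFKBIA, TNFAIP3, BIRC3 and CXCL1, against 11.3% of all windows. A match is only a description of these letters, and binding was not measured here.

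The stretches of the 3 target members, of the 3 CXC chemokine genes with close sequence to CXCL1 or high counts, and of 2 members of the feedback loop are printed 5′ to 3′ on the gene's own strand, with the matched letters in capitals. They lie at chr4:73740468-73740497 (CXCL8, plus strand), chr4:73869305-73869334 (CXCL1, plus), chr4:74099253-74099282 (CXCL2, minus), chr4:74038748-74038777 (CXCL3, minus), chr4:73998748-73998777 (CXCL5, minus), chr14:35404811-35404840 (NFKBIA, minus), chr4:102501301-102501330 (NFKB1, plus) and chr11:102317265-102317378 (BIRC3, plus). In BIRC3 the capitals mark 2 decamers, both of which read as the decamer on the other strand. In NFKBIA the capitals read as the string on the other strand.
CXCL8: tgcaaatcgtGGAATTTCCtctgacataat
CXCL1: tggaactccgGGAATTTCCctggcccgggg
CXCL2: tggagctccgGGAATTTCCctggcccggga
CXCL3: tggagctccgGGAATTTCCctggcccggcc
CXCL5: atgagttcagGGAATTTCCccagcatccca
NFKBIA: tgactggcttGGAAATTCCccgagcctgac
NFKB1: gacgtcagtgGGAATTTCCagccaggaagt
BIRC3: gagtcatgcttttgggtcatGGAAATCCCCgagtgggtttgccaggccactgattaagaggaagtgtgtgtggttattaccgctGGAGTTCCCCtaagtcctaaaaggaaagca

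Recovered reads totalled 18544419 to 22198173 in CDO1 libraries and 17516640 to 22159756 in mock libraries. CDO1 itself had normalised counts of 2484, 2336 and 2333 in CDO1 libraries, against 68.1, 0 and 0 in mock libraries, so the library labelled mock replicate 1 held 76 reads of the overexpressed gene. For CDO1 the authors' deposited table lists a log2 fold change of 0.09 with an adjusted p of 0.416, which differs from the counts in the same table by a wide margin, and the cause was not tested. The limma value was 9.18 ± 0.94 (SE), adjusted p = 2.74e-07, and with 2 mock libraries at 0 it depends on the pseudocount, being 9.85 at 0.5 and 7.61 at 5. All 12 colon epithelial markers were detected in every library and 10 of them passed the test as higher, beside 11.3% of all genes tested. Their sum was 0.96% to 1.03% of normalised counts in CDO1 libraries and 0.73% to 0.77% in mock libraries. KRT8 was the largest part of that sum, at 118756 of 195167 in CDO1 replicate 1 and 86886 of 149415 in mock replicate 1. The 4 fibroblast markers with a row summed to 139 to 156 normalised counts in CDO1 libraries and 204 to 313 in mock libraries, and the 6 leukocyte markers to 11.0 to 17.5 in CDO1 libraries and 20.5 to 29.6 in mock libraries. The 6 endothelial markers summed to 61.1 to 84.3 in CDO1 libraries and 29.3 to 128 in mock libraries. The leukocyte markers PTPRC and CD3E had no row and were not analysed here. A gene's level relative to its mean over the libraries went with exonic GC content most in mock replicate 2, with a Spearman's rho across genes of 0.52, beside -0.34 to 0.20 in the other 5 libraries.

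NFKB1, NFKB2, RELA and RELB, 4 of the 5 NF-kB subunits, did not pass the test between CDO1 and mock cells. The remaining subunit, REL, was not among the 10 genes and was called higher, as given with the other pathway genes. All values are normalised counts, that is, gene counts divided by a size factor for each library, and calls are those of limma on log2 of the value plus 1 with an adjusted p under 0.05 over 21775 genes. In bulk RNA, fewer cells of a type and less RNA per cell cannot be told apart. NFKB1, which encodes p105 and its product p50 (ENSG00000109320, GRCh38 chromosome 4, 102501329 to 102617302), had 1337, 1346 and 1326 in CDO1 libraries, against 1324, 1262 and 1369 in mock libraries. The CDO1 libraries lay inside the mock range, and the log2 fold change of 0.02 ± 0.06 (SE, n = 3 each) had a 95% interval of -0.10 to 0.14 (limma adjusted p = 0.845).

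RELA, the p65 subunit that carries the main activation domain (ENSG00000173039, chromosome 11, 65653596 to 65663094), had 1937, 1832 and 1967 in CDO1 libraries, against 2102, 2043 and 1912 in mock libraries. The groups overlapped through mock replicate 3, with a log2 fold change of -0.08 ± 0.06 and an interval of -0.20 to 0.04 (limma adjusted p = 0.361). NFKB2, the p100 precursor of p52 in the non-canonical branch (ENSG00000077150, chromosome 10, 102394110 to 102402529), had 1777, 2030 and 1786 in CDO1 libraries, against 2069, 2207 and 1800 in mock libraries. Replicate 2 was the highest in both groups and the groups overlapped, with a log2 fold change of -0.12 ± 0.07 and an interval of -0.27 to 0.03 (limma adjusted p = 0.265). Without mock replicate 3 this adjusted p was 0.0224. RELB, the usual partner of p52 (ENSG00000104856, chromosome 19, 45001430 to 45038198), had 649, 695 and 624 in CDO1 libraries, against 692, 760 and 634 in mock libraries. The groups again overlapped, with replicate 2 the highest in each, and the log2 fold change was -0.08 ± 0.07 with an interval of -0.24 to 0.08 (limma adjusted p = 0.495). Its sign turned to 0.06 once each library's trend with GC content was removed, and that of NFKB1 to -0.01 under that setting and under equal library totals.

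The 3 inhibitors each averaged more in CDO1 cells, yet none passed the test. NFKBIA, IkB-alpha, the inhibitor that NF-kB itself induces (ENSG00000100906, chromosome 14, 35401511 to 35404749), had 1044, 1096 and 1165 in CDO1 libraries, against 1053, 996 and 1078 in mock libraries. The lowest CDO1 library lay under 2 of the 3 mock libraries, and the log2 fold change was 0.08 ± 0.06 with an interval of -0.05 to 0.21 (limma adjusted p = 0.410).

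NFKBIE, IkB-epsilon, an inhibitor that acts later in the feedback (ENSG00000146232, chromosome 6, 44258166 to 44265788), had 1234, 1290 and 1213 in CDO1 libraries, against 1019, 1227 and 1040 in mock libraries. Mock replicate 2, at 1227, was the only mock library within the CDO1 range. The means of 1245 ± 39.6 in CDO1 cells and 1095 ± 115 in mock cells (SD, n = 3 each) gave a log2 fold change of 0.19 ± 0.07, with an interval of 0.05 to 0.33 and a limma adjusted p of 0.0514. The call of NFKBIE depended on the setting: its adjusted p was 0.00109 without mock replicate 2 and 0.000223 with the GC trend removed, and 0.257 without mock replicate 1. Its exonic GC content was 61.0%, and mock replicate 2 was the library with the strongest GC trend. With that trend removed the log2 fold change of NFKBIE was 0.26.

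TNFAIP3, the ubiquitin-editing enzyme A20 that ends signalling upstream of the kinase complex (ENSG00000118503, chromosome 6, 137867188 to 137883312), had 457, 495 and 520 in CDO1 libraries, against 447, 417 and 410 in mock libraries. All 3 CDO1 libraries were above all 3 mock libraries, the nearest pair being 457 and 447. The log2 fold change was 0.21 ± 0.08 with an interval of 0.05 to 0.37 (limma adjusted p = 0.0587), and 4 of the 18 alternative settings put it under 0.05. An antisense gene that shares 95 exon bases with TNFAIP3 had 11 to 29 reads, and whether the counting used strand is not stated.

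**Figure D1:**
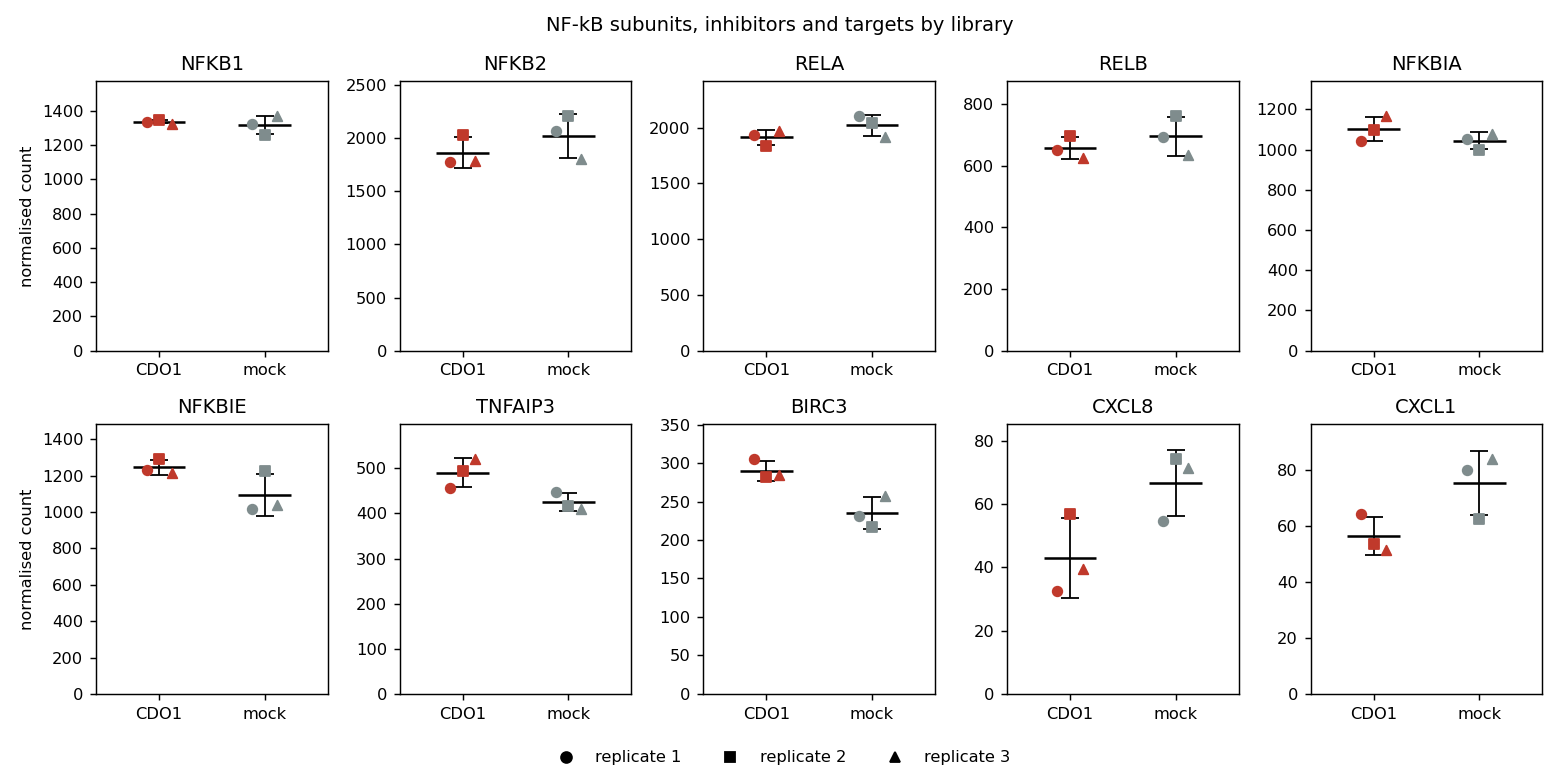
Normalised count of each of the 10 genes (vertical axes from 0, a scale for each gene) in the 3 CDO1 libraries on the left and the 3 mock libraries on the right of each panel; symbols mark replicate numbers, long bars the mean and whiskers 1 SD. BIRC3 and TNFAIP3 are the only panels in which the groups do not overlap, and CXCL8 and CXCL1 lie lower in CDO1 cells by their means.

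Of the 3 target genes 1 was called higher, 1 was called lower and CXCL1 did not pass. BIRC3, the cellular inhibitor of apoptosis cIAP2, which acts in TNF receptor signalling and is a classical NF-kB target (ENSG00000023445, chromosome 11, 102317450 to 102339403), had 305, 281 and 284 in CDO1 libraries, against 231, 217 and 257 in mock libraries. Every CDO1 library was above every mock library, and BIRC3 rose 1.23-fold, with means of 290 ± 12.8 in CDO1 cells and 235 ± 20.4 in mock cells (SD, n = 3 each). Its log2 fold change was 0.31 ± 0.09, with an interval of 0.11 to 0.50 and a limma adjusted p of 0.0205. The call did not hold without CDO1 replicate 1 (adjusted p = 0.102), CDO1 replicate 3 (0.0510), mock replicate 1 (0.0719) or mock replicate 2 (0.0694), nor in DESeq2 (0.0637) or the authors' deposited table (0.0597).

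CXCL8, interleukin-8, the chemokine that draws neutrophils (ENSG00000169429, chromosome 4, 73740506 to 73743716), had 32.5, 56.9 and 39.5 in CDO1 libraries, against 54.7, 74.1 and 71.3 in mock libraries. These rest on 33, 52 and 43 reads in CDO1 libraries and 61, 76 and 63 in mock libraries, and the groups overlapped, since CDO1 replicate 2 was above mock replicate 1. CXCL8 fell, with means of 43.0 ± 12.6 in CDO1 cells and 66.7 ± 10.5 in mock cells (SD, n = 3 each), a 1.55-fold lower level, and a log2 fold change of -0.65 ± 0.21 with an interval of -1.08 to -0.21 (limma adjusted p = 0.0285). The call did not hold without CDO1 replicate 1 (adjusted p = 0.149), CDO1 replicate 3 (0.0901), mock replicate 2 (0.0794) or mock replicate 3 (0.0699), nor in DESeq2 (0.0870) or the authors' deposited table (0.0810). The leukocyte and fibroblast marker sums given above were also lower in CDO1 libraries, and their part in the CXCL8 result was not tested. The fibroblast sum was mostly COL1A1, which averaged 103 in CDO1 cells and 225 in mock cells. PDGFRA and PDGFRB did not pass, with log2 fold changes of 1.55 and 0.32. The value for PDGFRA rests on 4, 9 and 9 reads in CDO1 libraries and 21, 0 and 0 in mock libraries. Its means were 7.35 in CDO1 cells and 6.27 in mock cells. Among 5 tested leukocyte markers ITGAM was called lower, at 0.63 in CDO1 cells and 7.20 in mock cells, and CD14, at 7.09 in CDO1 cells and 3.73 in mock cells, was among the 4 that did not pass.

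CXCL1, a related neutrophil chemokine beside CXCL8 on chromosome 4 (ENSG00000163739, 73869393 to 73871242), had 64.1, 53.6 and 51.4 in CDO1 libraries, against 79.8, 62.4 and 83.7 in mock libraries. Only CDO1 replicate 1 and mock replicate 2 were out of order between the groups, and the reads behind them were 49 to 65 in CDO1 libraries and 64 to 89 in mock libraries. The log2 fold change was -0.41 ± 0.17 with an interval of -0.76 to -0.05 (limma adjusted p = 0.0958), and CXCL1 passed the test under 3 of the 18 alternatives. CXCL1, CXCL2 and CXCL3 are close copies that may exchange reads.

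**Figure D2:**
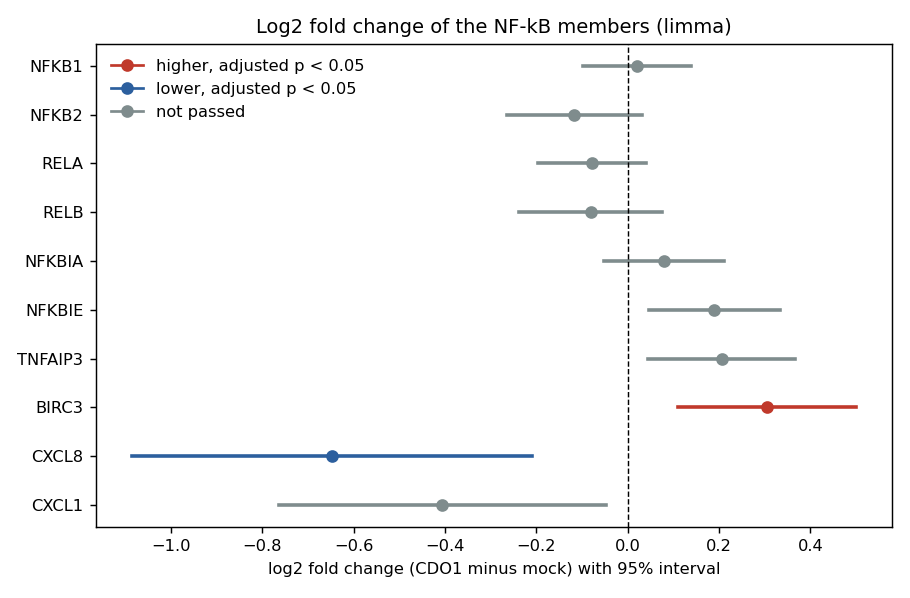
Log2 fold change of each gene, CDO1 minus mock (horizontal axis), on the log2(normalised count + 1) scale; points are limma estimates, bars 95% intervals, and colour the call at an adjusted p under 0.05. The subunits lie between -0.12 and 0.02, the inhibitors between 0.08 and 0.21, BIRC3 at 0.31, CXCL8 at -0.65 and CXCL1 at -0.41.

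Of the 10 genes, all of which passed the filter of a mean of at least 1, 2 were called, 1 higher (BIRC3) and 1 lower (CXCL8). That is 20%, beside 24.0% of all 21775 genes tested, of which 11.3% were higher and 12.7% lower, so the share of calls was near the background. At an unadjusted p under 0.05 there were 5 of 10, beside 34.2% of all genes, and groups that did not overlap were seen in 2 of 10, beside 37.1%. The median log2 fold change of the 10 was -0.03, beside -0.0035 for all genes, with 5 above 0 and 5 below.

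The count of calls varied with the tool. It was 4 of 10 in edgeR on the recovered reads (35.7% of all genes tested), 4 with genes of a mean of at least 10 (35.8%), 4 with the GC trend removed (29.3%) and 4 with the replicate number as a block (27.2%). It was 0 of 10 in DESeq2 (15.7% of all 27134 genes) and 0 in the authors' deposited table (15.9% of 27134). In each, 4 of the 10 had an unadjusted p under 0.05. These shares are over unfiltered genes. Of those, 11579 had no adjusted p in DESeq2, and 11591 stood at the upper limit of the deposited adjusted p. They are therefore not on a par with the shares over filtered genes. NFKB1, RELA, RELB and NFKBIA were not called under any of the 18 alternatives.

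**Figure D3:**
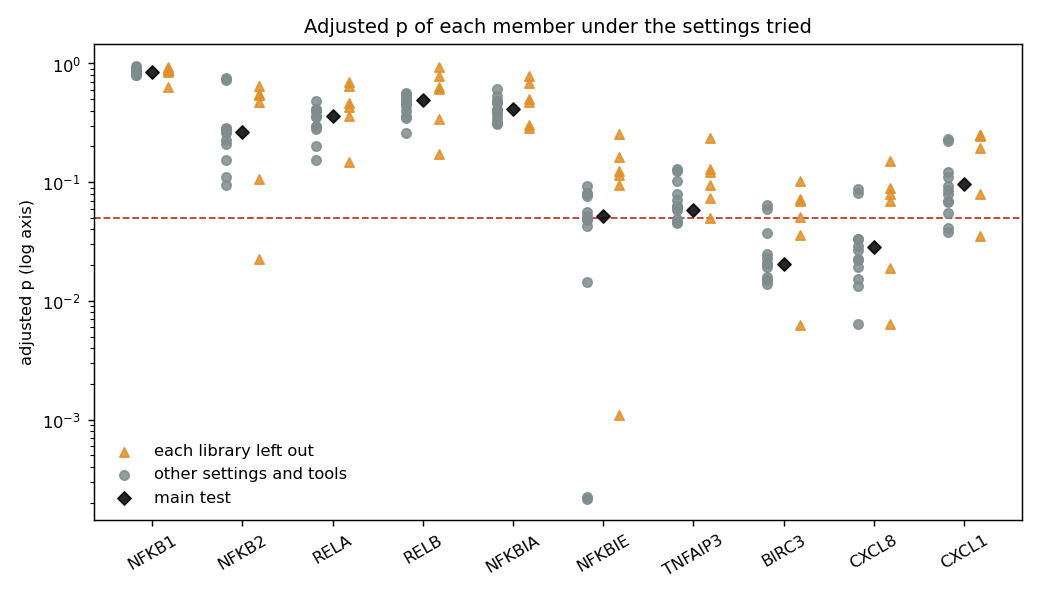
Adjusted p of each gene (log axis) in limma (black diamonds), under the other settings and tools (grey circles) and with each library left out (orange triangles); the dashed line is 0.05. BIRC3 and CXCL8 have points on both sides of the line, as have NFKB2, NFKBIE, TNFAIP3 and CXCL1, whereas NFKB1, RELA, RELB and NFKBIA stay above it.

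Divided by merged exon length, the levels of the 10 genes spanned a wide range in the same broad order in both groups. In CDO1 cells, in normalised counts per kb, NFKBIE was at 483, NFKBIA at 464, NFKB2 at 416, RELA at 350, RELB at 216, NFKB1 at 214, TNFAIP3 at 97.1, CXCL1 at 43.5, BIRC3 at 38.6 and CXCL8 at 18.9. In mock cells NFKB2 was at 452, NFKBIA at 439, NFKBIE at 424, RELA at 370, RELB at 229, NFKB1 at 211, TNFAIP3 at 84.1, CXCL1 at 58.1, BIRC3 at 31.2 and CXCL8 at 29.3. The subunits and IkB proteins were thus above A20, and A20 above the chemokines and BIRC3, in each of the 6 libraries. Neighbours whose libraries overlapped were NFKBIE, NFKBIA and NFKB2 at the top, RELB and NFKB1 in the middle, CXCL1 and BIRC3 in CDO1 cells, and BIRC3 and CXCL8 in mock cells. Per kb of the longest transcript instead, NFKBIA led at 707 in CDO1 cells and 669 in mock cells, so the order at the top depended on the length used.

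Ratios within a library do not depend on its scaling, and none of the 5 examined set the groups apart. The log2 ratio of NFKBIA to RELA, an inhibitor against the subunit it holds, was -0.89, -0.74 and -0.76 in CDO1 libraries and -0.998, -1.04 and -0.83 in mock libraries. Only CDO1 replicate 1 lay within the mock range. The log2 ratio of RELB to RELA averaged -1.54 ± 0.13 in CDO1 cells and -1.54 ± 0.10 in mock cells, and that of NFKB2 to NFKB1 0.48 ± 0.10 in CDO1 cells and 0.62 ± 0.21 in mock cells (SD, n = 3 each). That of CXCL8 to CXCL1 averaged -0.42 ± 0.53 in CDO1 cells and -0.18 ± 0.40 in mock cells, with overlap.

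Beyond the 10 genes, 135 other genes of the pathway were listed by role, 128 had a row and 120 could be tested. Of these 25 were higher, 17 lower and 78 did not pass, with a median log2 fold change of 0.06. That is 35% called, beside 24.0% of all genes tested. Among genes with a mean of at least 10, 41.4% of 111 pathway genes, 40.0% of the 10 and 35.8% of all genes were called. The shares of the lists below are at the lower filter, a mean of at least 1, as is the 24.0% of all genes. With each library left out in turn, the pathway calls numbered 32 to 46.

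Of 8 other subunits and IkB proteins, 2 were higher, 1 lower and 5 did not pass, with a median log2 fold change of 0.11. That is 37.5% called, beside 24.0% of all genes tested. NFKBIZ, a nuclear IkB protein that works as a co-activator, had 1002, 1139 and 1095 in CDO1 libraries and 781, 791 and 812 in mock libraries, with no overlap. It rose by a log2 fold change of 0.44 ± 0.06 (limma adjusted p = 2.85e-05). REL, the c-Rel subunit, rose to 480 ± 26.5 in CDO1 cells, against 372 ± 37.7 in mock cells (limma adjusted p = 0.00283). NFKBIB, IkB-beta, fell to 917 ± 73.8 in CDO1 cells, against 1168 ± 98.8 in mock cells, a log2 fold change of -0.35 ± 0.07 (limma adjusted p = 0.00105). The inhibitors thus included 1 that fell and 1 nuclear member that rose, beside NFKBIA and NFKBIE, which did not pass.

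Of 30 kinases and adaptors between receptor and IkB, 6 were higher, 4 lower and 20 did not pass, with a median of 0.02. The share called was 33.3%, beside 24.0% of all genes tested. Those with the smallest p among the higher ones were the kinases IRAK4 at 0.45 ± 0.08 and IRAK2 at 0.42 ± 0.08 and the adaptor MYD88 at 0.28 ± 0.06 on the log2 fold change scale (limma adjusted p = 0.000388, 0.000451 and 0.00121). CARD10, the scaffold that links receptors to BCL10 and MALT1, fell by 0.38 on that scale, to 1007 ± 56.2 in CDO1 cells, against 1318 ± 155 in mock cells (limma adjusted p = 0.000617). The 3 parts of the IkB kinase complex did not pass. CHUK, the alpha kinase, had a log2 fold change of -0.13 ± 0.06, IKBKB, the beta kinase, 0.07 ± 0.07, and IKBKG, the scaffold NEMO, -0.28 ± 0.12 (limma adjusted p = 0.154, 0.523 and 0.0947). CHUK passed as lower without mock replicate 2 (0.0402) and with the GC trend removed (0.00461), and IKBKG in edgeR with library totals (0.0466).

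Of 13 brakes on the pathway that could be tested, 3 were higher, 2 lower and 8 did not pass, with a median of 0.08. The share called was 38.5%, beside 24.0% of all genes tested. TAX1BP1 and TNIP1, which bring A20 to its targets, both rose. TAX1BP1 averaged 7746 ± 423 in CDO1 cells and 5382 ± 540 in mock cells (limma adjusted p = 2.71e-06). TNIP1 averaged 3419 ± 75.5 in CDO1 cells and 2705 ± 22.6 in mock cells (limma adjusted p = 3.04e-05). RNF31, the catalytic subunit of the linear ubiquitin ligase, fell to 573 ± 25.8 in CDO1 cells, against 737 ± 115 in mock cells (limma adjusted p = 0.00693). RBCK1, another subunit of that ligase, rose to 3590 ± 59.2 in CDO1 cells, against 3143 ± 241 in mock cells (limma adjusted p = 0.0156). SHARPIN, a further subunit, did not pass, with a log2 fold change of -0.16 ± 0.07 (limma adjusted p = 0.140). That ligase also promotes signalling, so its place on the list of brakes is not clear-cut. IRAK3, an inhibitory member of its family, was called lower with 0 reads in every CDO1 library and 4, 2 and 6 in mock replicates 1 to 3 (limma adjusted p = 0.0152). That call was lost without mock replicate 1 (0.0503) or mock replicate 3 (0.0999), the authors' deposited table lists an adjusted p of 1, and DESeq2 gave it none.

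Receptors that feed NF-kB gave 3 higher, 5 lower and 15 not passed of 23 tested, with a median of -0.07. The share called was 34.8%, beside 24.0% of all genes tested. CD40, a TNF receptor family member that drives both branches, had 76.9, 52.5 and 90.0 in CDO1 libraries, against 172, 206 and 213 in mock libraries, with no overlap. It fell 2.69-fold, a log2 fold change of -1.44 ± 0.16 (limma adjusted p = 1.09e-06). IL18R1, a chain of the interleukin-18 receptor, fell to 9.66 ± 3.28 in CDO1 cells, against 28.6 ± 5.44 in mock cells (limma adjusted p = 0.00145). TNFRSF1B, TNF receptor 2, rose to 445 ± 46.0 in CDO1 cells, against 302 ± 4.58 in mock cells (limma adjusted p = 5.64e-05), and TLR3, the receptor for double-stranded RNA, to 287 ± 20.9 in CDO1 cells, against 198 ± 3.82 in mock cells (limma adjusted p = 0.00021). TNFRSF1A, TNF receptor 1, had a log2 fold change of -0.15 ± 0.06 and did not pass (limma adjusted p = 0.0622), though it did in edgeR with TMM (0.0398). CD40 and the leukocyte marker sum were both lower in CDO1 cells, and the part of the one in the other was not tested.

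Ligands gave 3 higher, 1 lower and 7 not passed of 11 tested, with a median of 0.23. The share called was 36.4%, beside 24.0% of all genes tested. The alarmin IL33 had 674, 566 and 565 in CDO1 libraries, against 320, 310 and 352 in mock libraries, and rose 1.84-fold (limma adjusted p = 1.48e-07). TNFSF15 rose to 924 ± 27.1 in CDO1 cells, against 574 ± 22.3 in mock cells (limma adjusted p = 1.00e-07), and IL18 to 645 ± 40.6 in CDO1 cells, against 464 ± 35.7 in mock cells (limma adjusted p = 9.46e-05). TNFSF9, the ligand of 4-1BB, fell to 150 ± 6.22 in CDO1 cells, against 282 ± 20.3 in mock cells (limma adjusted p = 7.43e-07). TNF itself was near the limit of detection, with 0, 2 and 0 reads in CDO1 libraries and 11, 0 and 0 in mock libraries. The 11 reads are all in mock replicate 1, the library that also held CDO1 reads.

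Other target genes gave 11 higher, 4 lower and 24 not passed of 39 tested, with a median of 0.12. That is 38.5% called, beside 24.0% of all genes tested and 35.8% of all genes with a mean of at least 10. All genes were themselves called in both directions. TNFAIP2, a gene first known as a TNF-induced transcript, had 249, 255 and 272 in CDO1 libraries, against 596, 635 and 632 in mock libraries. It fell 2.40-fold, a log2 fold change of -1.26 ± 0.08 (limma adjusted p = 1.96e-10). IER3, an early response gene, fell to 2073 ± 197 in CDO1 cells, against 3267 ± 189 in mock cells (limma adjusted p = 2.13e-07), and PLAU, the urokinase plasminogen activator, to 178 ± 8.73 in CDO1 cells, against 335 ± 13.4 in mock cells (limma adjusted p = 2.29e-07). Several genes of these lists answer to other factors as well, so a count over a list is not a measure of NF-kB activity.

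**Figure D4:**
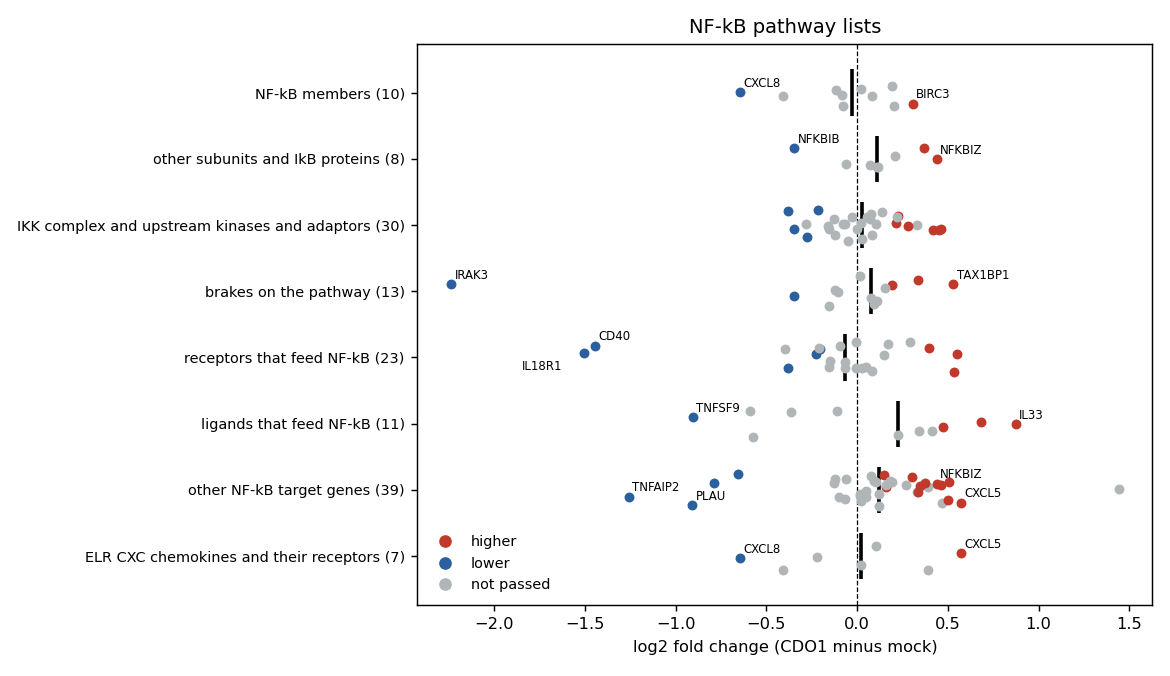
Log2 fold change, CDO1 minus mock (horizontal axis), of every tested gene of each list, with the number tested in brackets; black bars are medians, colour gives the limma call, and genes on several lists appear in each. Higher and lower calls occur on every list, and the lowest points are IRAK3, with 0 to 6 reads, then IL18R1 at -1.51 and CD40 at -1.44.

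CXCL5, the chemokine with the highest count in its family, was called higher, whereas CXCL8 was called lower. It had 33808, 33776 and 32836 in CDO1 libraries, against 22214, 21618 and 23763 in mock libraries, with no overlap. CXCL5 rose 1.49-fold, a log2 fold change of 0.57 ± 0.05 (limma adjusted p = 5.60e-08). Per kb of merged exon it was at 13189 ± 218 in CDO1 cells and 8878 ± 436 in mock cells (SD, n = 3 each), far above CXCL1 and CXCL8. CXCL3 was at 99.5 per kb in CDO1 cells and 92.7 in mock cells, and CXCL2 at 43.6 in CDO1 cells and 42.7 in mock cells, and neither passed the test, with log2 fold changes of 0.10 ± 0.10 and 0.02 ± 0.16 (limma adjusted p = 0.529 and 0.952). The sign for CXCL2 turned to -0.0065 with equal library totals. All 5 of these genes hold the string GGAATTTCC in the printed stretches, and their log2 fold changes ran from -0.65 to 0.57. PF4, entered in the list with them although it lacks the ELR motif of this family, did not pass at 0.39 ± 0.18 (limma adjusted p = 0.124).

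**Figure D5:**
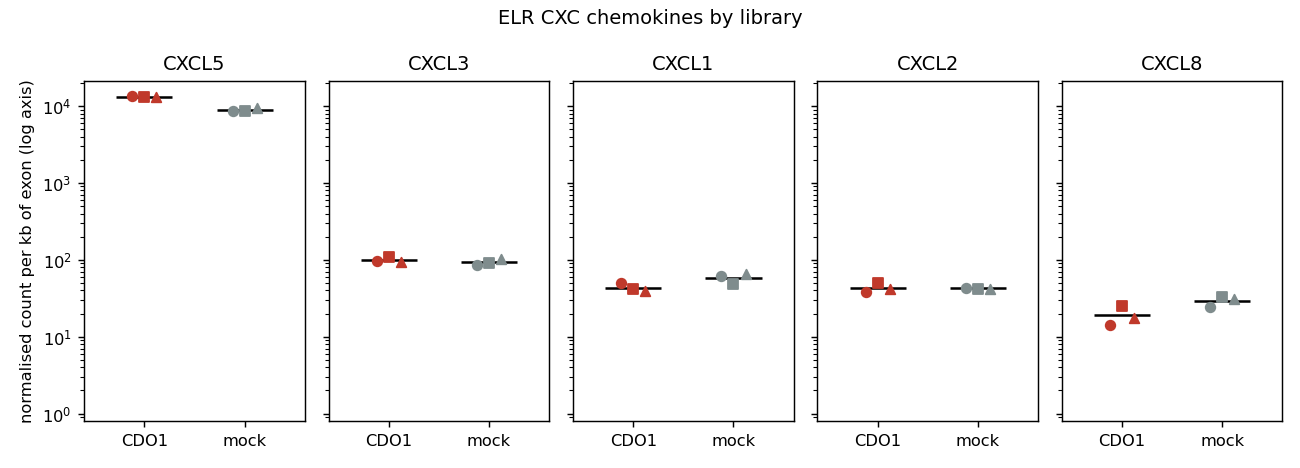
Normalised count per kb of merged exon (log axis, shared) of 5 chemokines in the CDO1 libraries on the left and the mock libraries on the right of each panel; symbols mark replicates as in the plot by library and bars the mean. CXCL5 lies at 13189 in CDO1 cells and 8878 in mock cells, CXCL8 at 18.9 in CDO1 cells and 29.3 in mock cells.

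The genes whose pattern over the 6 libraries lay nearest to those of the 3 members with the smallest p were found by the root mean square difference of centred log2 values, among genes with a mean of at least 100. For BIRC3 these were RND3 at 0.0225, FNTA at 0.0267 and RNF19A at 0.0270. For CXCL8 they were TSSK5P at 0.155, SPHK1 at 0.156 and GALNT18 at 0.159, a looser likeness, and for NFKBIE SLC25A25 at 0.0209, HGSNAT at 0.0334 and MRPL54 at 0.0354. These describe likeness over 6 libraries only.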

How the data were processed

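RNA-seq libraries of 6 KM12 samples, 3 CDO1 and 3 mock, were used. The authors' tools, per the submitters' processing notes, were STAR 2.5.1b and DESeq2 1.10.1 with the build GRCh38; the sources used here give neither the read counter nor the annotation release. The signal columns, as deposited by the authors, are gene counts divided by a size factor per library, and 100% of values came back as whole reads within 0.001 of a read. The deposited log2 fold change, p-value and adjusted p-value are the authors' own comparison, per the file headers. That fold change was smaller in size than the limma one for CXCL8, CXCL1 and CDO1. It was also smaller for BIRC3, NFKBIE, TNFAIP3, CD40 and IL18R1, though not for NFKB2 or RELB.

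Because the values are normalised, the test was limma 3.58.1 (trend) on log2(value + 1), group only. It covered genes whose mean was at least 1, with Benjamini-Hochberg adjustment over 21775 genes. Adding 1 shrinks the log2 fold changes of low genes. With libraries at or near 0 the estimate can still be far from the ratio of means. KDR, which did not pass, had a log2 fold change of 0.99 with means of 8.43 in CDO1 cells and 16.2 in mock cells. Fold values are ratios of mean normalised counts. edgeR 4.0.16 (quasi-likelihood, 15184 genes) and DESeq2 1.42.0 ran on recovered reads in R 4.3.3. The other alternatives were filters, pseudocounts, equal or raw library totals, removal of a lowess trend with GC content (span 0.3), the replicate number as a block, and each library left out.

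The members and lists were chosen with earlier results of these data known. Named genes are the members, CDO1, up to 4 genes of each list with the smallest p, and other list genes with their values. Lengths, GC content and gene coordinates came from GENCODE release 29, which holds 26742 of the identifiers, and names from a table that holds 26577. Same-group libraries differed beyond sampling noise (chi-square per degree of freedom 2.19 to 9.08), so all 6 were kept. The reads carry no molecular identifiers.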

Additional observations from a re-analysis of the deposited data

How the results depend on the processing

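With 3 libraries per group, differences of low genes such as CXCL8 and CXCL1 rest on 33 to 89 reads. The count of the 10 genes called was 2 in limma. It was 4 (3 higher) with a mean of at least 10, in edgeR with TMM and with the replicate number as a block, 4 (2 higher and 2 lower) with the GC trend removed, alone or with the block, and 0 (0 higher and 0 lower) in DESeq2 and in the authors' deposited table. With a pseudocount of 5 the higher calls were 2. With each library left out the count ran from 0 to 2. The higher calls ran from 0 to 1 and the lower calls from 0 to 1. The genes called changed: TNFAIP3 alone without CDO1 replicate 1, BIRC3 and CXCL8 without CDO1 replicate 2, and CXCL8 alone without mock replicate 1. They were NFKBIE and CXCL1 without mock replicate 2, and NFKB2 and BIRC3 without mock replicate 3. Without CDO1 replicate 3 none was called. In these fits other pathway genes called lower ran from 11, without CDO1 replicate 1, to 17, and all genes called from 4002 to 5492. The log2 fold change of CDO1 then ran from 8.16 to 11.22, the highest without mock replicate 1, and it was 6.57 in edgeR with TMM and 7.61 with a pseudocount of 5.

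The replicate numbers were not shown to pair the samples: deviations of same-numbered libraries correlated at 0.08, 0.30 and 0.09 over 10941 genes, and CDO1 replicate 1 correlated more with mock replicate 3 (0.19). With the replicate block 5918 genes were called, against 5229 without it.

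Signs turned for genes near 0 and for CXCR2, which had few reads. NFKB1 was at -0.0066 in edgeR with library totals, -0.0061 with equal totals, -0.0117 with the GC trend removed, with or without the block, and -0.0106 without mock replicate 2, its highest value being 0.048 without mock replicate 3. RELB was at 0.060 with the GC trend removed, with or without the block. CXCL2 was at -0.0047 in edgeR with library totals, -0.0065 with equal totals and -0.035 with the GC trend removed, with or without the block, and with a library left out from -0.088, without CDO1 replicate 2, to 0.110. CXCR2, with 5 to 21 reads and a limma log2 fold change of -0.22 ± 0.41, ran from -0.70 to 0.14, the highest without mock replicate 2. The cause of these turns was not tested. The other pathway genes named as called kept their call under every alternative except IRAK3 and RBCK1. RBCK1 kept its call under 15 of the 18 alternatives.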

Other observations

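Endothelial receptor genes and CDO1 itself stood out in the library labelled mock replicate 1. KDR had 53 reads there, against 1 and 0 in the other mock libraries, and TEK had 50, against 1 and 1, beside its 76 reads of CDO1 and 11 of TNF. Without this library the log2 fold change of BIRC3 was 0.30, against 0.31 with it, at an adjusted p of 0.0719 in limma, and that of CXCL8 was -0.78, against -0.65 with it, at 0.0190.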
